A study of Mus musculus with 7 samples.

Results

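ATP-binding cassette (ABC) transporters were followed in the lateral ventricle choroid plexus of mouse embryos exposed to red blood cells. The genes were taken by name, subfamilies Abca to Abcg with a number and an optional letter, which gave 50 of the 40873 genes analysed. The treated samples, called RBC here, are 3 libraries of pooled choroid plexus from wild-type (WT) CD-1 embryos, an outbred stock, collected at E15.5 (embryonic days), 24 h after treatment with red blood cells. The cells were washed in saline after centrifugation of whole blood from donors of 1 litter at E14.5. The control samples, called Saline, are 4 libraries of the same tissue, stock and stage after saline. Poly(A) RNA was sequenced in 1 labelled batch. How many embryos or litters a pool holds is not stated in the labels, so p-values measure only the variation between libraries, which may be partly technical. Read counts per gene as deposited were tested, and levels are given as CPM (counts scaled to the TMM-adjusted library size) within a gene or as TPM (counts also scaled by exon length) between genes.

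ABC proteins bind and split ATP, and most use it to move a substrate across a membrane. The choroid plexus epithelium is the barrier between blood and cerebrospinal fluid, where MRP-type pumps of the C subfamily clear organic anions and conjugates. P-glycoprotein and Bcrp are best known from brain capillaries. Other members load lipoproteins with cholesterol, carry fatty acids into peroxisomes, serve heme metabolism in mitochondria, regulate potassium channels or, without any membrane part, act on ribosomes. Bulk tissue holds epithelium, stroma, vessels and macrophages, and fewer cells of a type cannot be told apart from less RNA per cell.

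Library totals ran from 4393860 to 8386928 counts. The epithelial markers that define the tissue were present in all 7 libraries, at a summed 17979 to 19615 CPM in RBC and 18384 to 23523 CPM in Saline. Of these 10 markers, 9 were lower in RBC and 0 passed the edgeR test. An unadjusted p under 0.05 was found for 4, all lower, against 4.32% of all genes that were lower at that p. DESeq2 called 2 (Aqp1 and Slc4a5), where it called 1.41% of all genes. Saline 4, RBC 3 and RBC 2 stood apart. Saline 4, the shallowest, held 1767 CPM over 8 hepatocyte genes, against 67.2 to 160 CPM in the other 6 libraries. RBC 3 held 3101 CPM over 10 fibroblast and mural genes, against 1657 to 2121 CPM elsewhere, and 1376 CPM over 10 endothelial genes, against 976 to 1207 CPM elsewhere. RBC 2 held 87.9 CPM over 8 neutrophil genes, against 3.85 to 19.0 CPM elsewhere, and its counts differed most from those of Saline 3, at a chi-square of 14.2 per degree of freedom. All 12 macrophage markers were higher in RBC, with 390 to 568 CPM summed in RBC and 247 to 326 CPM in Saline. Of these 12, Adgre1 passed the edgeR test, which called 0.0605% of all genes, and 9 passed in DESeq2, which called 1.41%. Neural markers summed to 208 to 282 CPM in RBC and 247 to 312 CPM in Saline, with 7 of 8 lower in RBC and a median log2 fold change of -0.67. Erythroid markers summed to 2220 to 2831 CPM in RBC and 2179 to 3316 CPM in Saline, with 8 of 9 tested lower in RBC and a median of -0.12. There were 0 genes past edgeR or DESeq2, or with an unadjusted p under 0.05, in either list. The part of these cell types in the values below was not tested, also where a marker measurement is given beside them.

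Of the 50 genes, 41 had a count in every library and 2, Abca14 and Abca16, had 0 counts throughout. Enough counts to be tested were found for 40, among 14869 genes tested in all. The remaining 8 had counts but did not pass the filter on low counts: Abcc6, Abcc2, Abcb11, Abcc12, Abcb5, Abca17, Abca12 and Abca15. Over all genes, the quasi-likelihood F test of edgeR called 9 of 14869 (0.0605%) at an adjusted p under 0.05, and 0 of the 40 ABC genes were among them. An unadjusted p under 0.05 was found for 4 of the 40, against 9.54% of all genes. Of these, 2 were higher in RBC (against 5.22% of all genes), Abcd2 among them, and 2 were lower (against 4.32%), Abca4 and Abca1. DESeq2 called 1 of the 43 ABC genes for which it gave an adjusted p, Abca4, where it called 1.41% of all genes. limma-voom called 0 of the 40, where it called 0.0605% of all genes, and 0 of the 40 with sample weights, where it called 0.323%. Groups did not overlap for 3 of 40, against 9.59% of all genes, with 1 higher in RBC (against 4.96%) and 2, Abca4 and Abcb4, lower in RBC (against 4.63%).

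As a family the genes shifted little. Of the 40 tested, 18 had a log2 fold change (RBC over Saline) above 0 and 22 below, against 49.9% above and 50.1% below over all genes. Their median log2 fold change was -0.05, where that of all genes was -0.00. The absolute log2 fold change was under 0.2 for 72.5% of ABC genes and for 72.2% of all genes. Subfamily A had 8 of 11 tested members lower with a median of -0.18, and subfamily C had 5 of 7 higher with a median of 0.07.

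**Figure D1:**
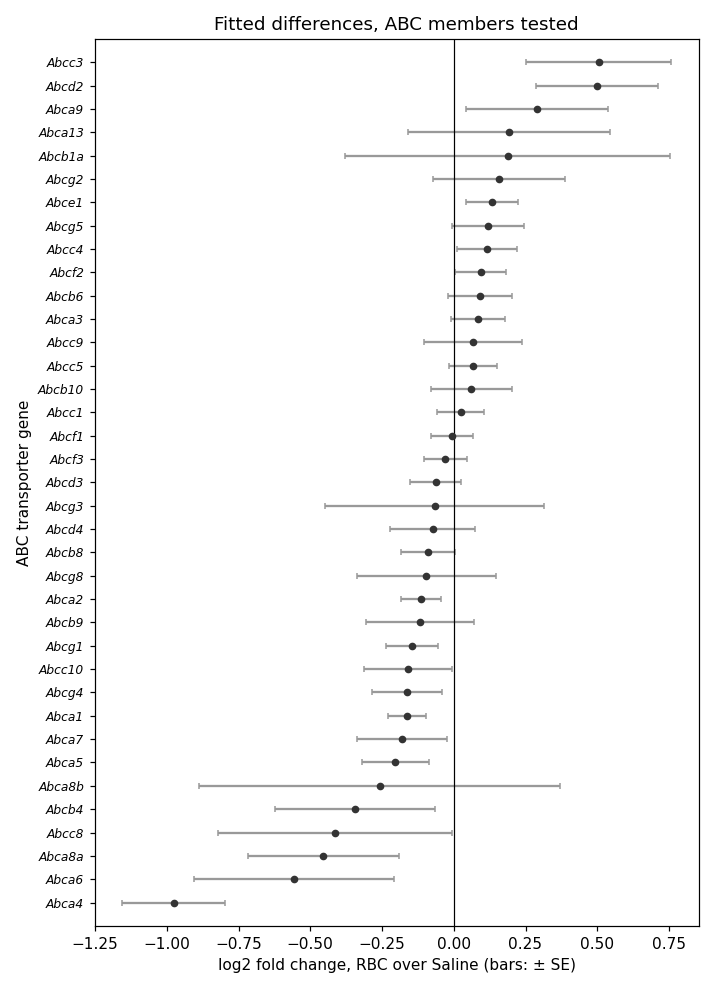
Fitted log2 fold change, RBC over Saline, of 37 tested ABC genes (points, with bars for the standard error); Abcb1b, at -4.11 with a standard error of 2.66, is not drawn. Abca4 lies farthest below 0, and Abcc3 and Abcd2 farthest above.

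The promoters of 5 members on which the results turn are shown first: Abca4, the ABC gene with the lowest p, Abca1, the abundant cholesterol exporter, the near-duplicate pair Abcb1a and Abcb1b, which differ in which libraries hold them, and Abcg5, abundant here though best known from liver and intestine. Each runs 5′ to 3′ from 250 bases before to 50 after the annotated start, in RefSeq coordinates of GRCm38.p6, an older build than that of the counts. Capitals mark matches, on either strand, to 7 motifs: the GC box as GGGCGG, the CCAAT box by these letters, the TATA box as TATAAA, the site of Otx and Crx factors as TAATCC, the core of the antioxidant response element as TGACNNNGC, the nuclear receptor half-site as AGGTCA and the E-box as CACGTG. The windows lie at chr3:122044210-122044509 (plus strand) for Abca4, chr4:53159846-53160145 (minus) for Abca1, chr5:8566841-8567140 (plus) for Abcb1a, chr5:8797897-8798196 (plus) for Abcb1b and chr17:84682962-84683261 (minus) for Abcg5.
Abca4: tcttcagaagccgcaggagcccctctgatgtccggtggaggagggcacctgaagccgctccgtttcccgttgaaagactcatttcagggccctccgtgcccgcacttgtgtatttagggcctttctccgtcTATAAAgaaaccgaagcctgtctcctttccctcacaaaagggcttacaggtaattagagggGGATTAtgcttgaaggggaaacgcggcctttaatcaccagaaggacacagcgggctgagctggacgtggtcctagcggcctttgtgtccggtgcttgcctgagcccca
Abca1: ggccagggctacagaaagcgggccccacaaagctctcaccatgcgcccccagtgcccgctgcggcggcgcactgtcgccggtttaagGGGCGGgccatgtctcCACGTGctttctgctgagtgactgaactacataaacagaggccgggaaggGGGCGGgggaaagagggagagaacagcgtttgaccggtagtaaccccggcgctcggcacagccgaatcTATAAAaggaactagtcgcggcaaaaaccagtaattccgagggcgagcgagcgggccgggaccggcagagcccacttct
Abcb1a: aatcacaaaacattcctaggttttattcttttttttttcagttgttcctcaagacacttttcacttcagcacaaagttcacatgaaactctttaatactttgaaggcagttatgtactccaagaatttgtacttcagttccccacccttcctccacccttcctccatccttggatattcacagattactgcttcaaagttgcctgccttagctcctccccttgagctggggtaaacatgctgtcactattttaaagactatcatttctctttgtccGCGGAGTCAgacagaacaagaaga
Abcb1b: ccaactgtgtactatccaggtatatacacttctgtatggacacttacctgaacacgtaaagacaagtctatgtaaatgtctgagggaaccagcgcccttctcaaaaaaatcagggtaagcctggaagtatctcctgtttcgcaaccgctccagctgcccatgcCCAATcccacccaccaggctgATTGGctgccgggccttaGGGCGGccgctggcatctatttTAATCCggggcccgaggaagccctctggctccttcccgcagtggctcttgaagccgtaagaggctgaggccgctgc
Abcg5: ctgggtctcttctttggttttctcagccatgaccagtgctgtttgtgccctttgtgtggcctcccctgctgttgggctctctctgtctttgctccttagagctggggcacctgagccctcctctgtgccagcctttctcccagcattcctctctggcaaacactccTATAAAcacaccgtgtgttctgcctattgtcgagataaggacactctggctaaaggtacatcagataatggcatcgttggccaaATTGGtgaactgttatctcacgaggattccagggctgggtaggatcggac

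RefSeq promoter windows were matched for 38 of the 50 genes. Among all 32851 windows of this length, the letters of the GC box were found in 35.7%, the CCAAT box in 37.4%, the TATA box in 13.6%, the Otx and Crx site in 7.06%, the antioxidant core in 12.4%, the nuclear receptor half-site in 16.3% and the E-box in 7.15%. The Abca4 window held the TATA box letters 119 bases before the start and the Otx and Crx site, on the opposite strand as GGATTA, 58 bases before it. The Abca1 window held 2 GC boxes, 1 E-box and the TATA box letters 29 bases before the start. The Abcb1a and Abcb1b windows had no motif in common: that of Abcb1a held the antioxidant core alone, after the start, and that of Abcb1b held 1 GC box, 2 CCAAT boxes and 1 Otx and Crx site. Their base composition also differed, with 40.3% G and C and 2 CpG in Abcb1a against 55.0% and 12 CpG in Abcb1b. For ABC genes with several windows, as 6 had, the highest share of G and C was taken. On this measure the tested ABC genes had a median of 63.0%, and the 12 most abundant with a window 64.7%. All windows, each taken singly and whether or not the gene was expressed here, had 52.7%, so the measures are not alike. The Abcg5 window, at 52.3% with 5 CpG, shares 209 bases with a window of its neighbour Abcg8, which is read in the opposite direction. It shares 0 bases with another Abcg8 window. A match describes these letters and is not shown to be a bound site.

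Abundance per exon length was led by Abce1 at a mean of 127 TPM over the 7 libraries, Abcg5 at 113, Abcf1 at 106 and Abca1 at 99.3 TPM. Abce1, at 113.3 TPM or more, lay above Abcf1, at most 112.6 TPM, and Abca1, at most 111.2 TPM, in every library. The range of Abcg5 overlapped those of the other 3, and Abcf1 overlapped Abca1, so the rest of the order is not settled. Abce1 was the highest ABC gene in 4 libraries and Abcg5 in 3. A step followed, since Abca1 lay above Abca2 in 7 of 7 libraries with ranges that did not overlap. Next came Abca2 at 57.5 TPM, Abcd3 at 56.2, Abcf3 at 53.8, Abcf2 at 53.3, Abcb6 at 47.7 and Abca3 at 40.1 TPM. Abca3 in turn lay above Abcc1, at 33.4 TPM, without overlap. From Abcc1 down to Abca4 at 18.4 TPM, each gene's range overlapped that of the next. The 5 most abundant members held 43.0% of the summed ABC level (by library, 41.4 to 44.1%). Without division by length, the long Abca1 and Abca2 came first.

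**Figure D2:**
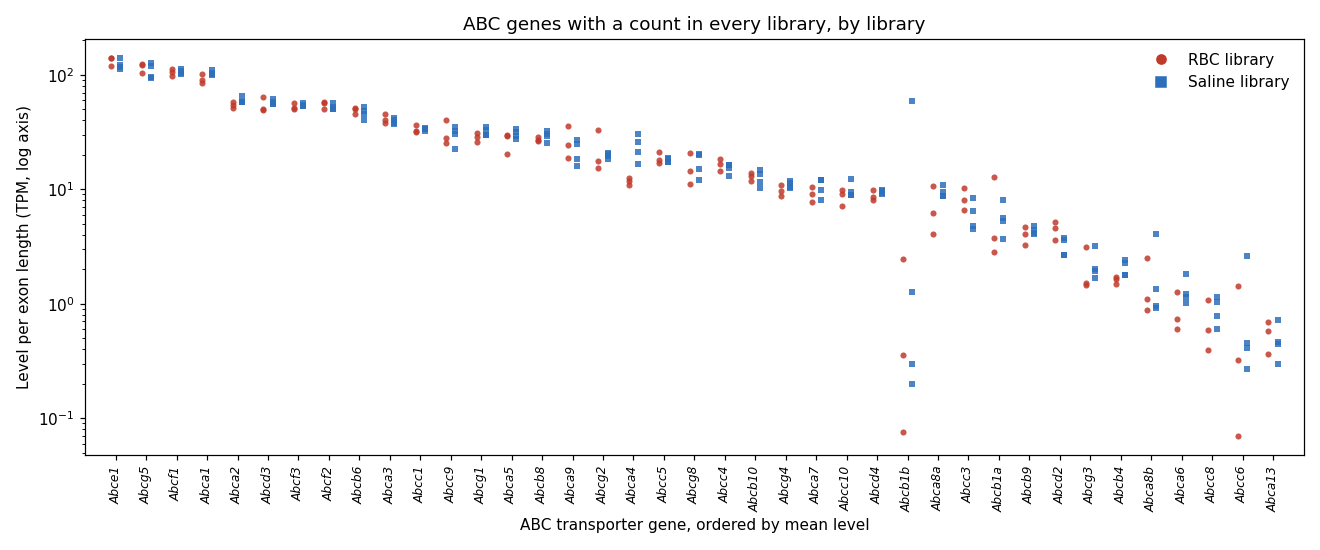
Level per exon length (TPM, log axis) of 39 ABC genes with a count in every library, ordered by their mean; each point is a library. The levels run from 127 TPM for Abce1 to under 1 TPM, and Abcb1b is spread over the widest range, with Saline 4 at 59.4 TPM.

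The genes without a membrane domain made up 29.1% of the summed level. Abce1, a ribosome recycling factor, had 139, 140.1 and 119.7 TPM in RBC libraries 1 to 3, against 116, 113, 141 and 121 TPM in Saline libraries 1 to 4. The groups overlapped, and its log2 fold change was 0.13 ± 0.09 (SE; edgeR adjusted p = 0.735). Abcf1, which acts with initiation factor eIF2, averaged 105 ± 7.09 TPM in RBC and 107 ± 4.46 TPM in Saline (SD, n = 3 and n = 4). Its relatives Abcf2 and Abcf3 had log2 fold changes of 0.09 ± 0.09 and -0.03 ± 0.07 (SE). On GRCm39, Abce1 spans 80410071 to 80438369 of chromosome 8 (minus strand).

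Exporters of cholesterol, plant sterols and phospholipid made up 23.8%, and 5 of 6 were lower in RBC with a median log2 fold change of -0.15, none past the edgeR threshold. Abca1, which loads cholesterol and phospholipid onto apolipoproteins, had 313, 301 and 349 CPM in RBC, against 357, 349, 374 and 357 CPM in Saline. The highest RBC library met the lowest Saline library, and the other RBC libraries lay below all Saline libraries. The log2 fold change was -0.16 ± 0.07 (SE), with an unadjusted p of 0.0303 and an edgeR adjusted p of 0.428. On GRCm39, Abca1 spans 53030789 to 53159988 of chromosome 4 (minus strand). Abcg1, which passes cholesterol to HDL particles, averaged 55.2 ± 5.40 CPM in RBC and 61.1 ± 4.20 CPM in Saline (SD, n = 3 and n = 4), with overlapping groups. Its close relative Abcg4 had 15.7, 17.8 and 19.4 CPM in RBC, against 20.4, 20.7, 18.4 and 19.2 CPM in Saline. For Abca7, a phospholipid transporter linked to phagocytosis, the log2 fold change stood at -0.18 ± 0.16 (SE, with an adjusted p in edgeR of 0.814).

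Abcg5 and Abcg8 together encode a transporter that returns sterols to bile and gut, and they lie head to head on chromosome 17, with 40 exon bases shared on opposite strands. On GRCm39, Abcg5 spans 84965602 to 84990439 (minus strand) and Abcg8 spans 84983730 to 85007761 (plus strand). Abcg5 had 125, 105 and 123 TPM in RBC, against 94.2, 120.5, 94.9 and 128 TPM in Saline. Abcg8 had 25.6, 14.4 and 17.7 CPM in RBC, against 14.8, 24.2, 18.3 and 26.2 CPM in Saline. Both were read in every library, and the groups overlapped. Per length, Abcg5 lay above Abcg8, which averaged 16.2 TPM over the 7 libraries. Both are known from hepatocytes. Abcg5 stood at 128 TPM in Saline 4, where the hepatocyte list summed to 1767 CPM, and at 94.2 to 125 TPM in the other 6 libraries, where that list summed to 67.2 to 160 CPM with 1 of its 8 genes, Ahsg, at 0. The part of hepatocyte RNA in these levels was not tested. The log2 fold changes were 0.12 ± 0.13 for Abcg5 and -0.10 ± 0.24 for Abcg8 (SE).

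Abca4 was the ABC gene with the smallest p. It encodes the flippase that clears retinal-lipid adducts from photoreceptor discs, and in these libraries it was a mid-level transcript. It had 39.8, 43.6 and 36.6 CPM in RBC (317, 288 and 202 counts), against 101, 70.4, 84.3 and 57.4 CPM in Saline (683, 439, 705 and 248 counts). All RBC libraries lay below all Saline libraries, and the RBC libraries lay close together where the Saline libraries were spread out. The means were 40.0 ± 3.50 CPM in RBC and 78.3 ± 18.7 CPM in Saline (SD, n = 3 and n = 4), a ratio of 0.509. The log2 fold change was -0.98 ± 0.18 (SE), with an unadjusted p of 0.00053 and an edgeR adjusted p of 0.113, so it did not pass over all genes. DESeq2 gave an adjusted p of 3.2e-05. The edgeR adjusted p was 0.0325 without Saline 4, in which Abca4 was the lowest of the Saline libraries. Over 19 alternatives the log2 fold change stayed between -1.15 and -0.83, the adjusted p ran from 3.2e-05 to 0.322, and the gene passed in 4: with DESeq2, without Saline 4, and without Saline 4 together with RBC 2 or with RBC 3. On GRCm39, Abca4 spans 121837547 to 121973719 of chromosome 3 (plus strand). An antisense gene, Gm40138, overlaps 3.82% of its exon bases and had 17 counts in all. Beside it, the median log2 fold change was -0.08 over the epithelial markers, with 9 of 10 lower in RBC, and -0.67 over the neural markers, with 7 of 8 lower. The neural sums overlapped, at 208 to 282 CPM in RBC and 247 to 312 CPM in Saline, and 0 neural markers had an unadjusted p under 0.05. The part of these cells in the Abca4 values was not tested.

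**Figure D3:**
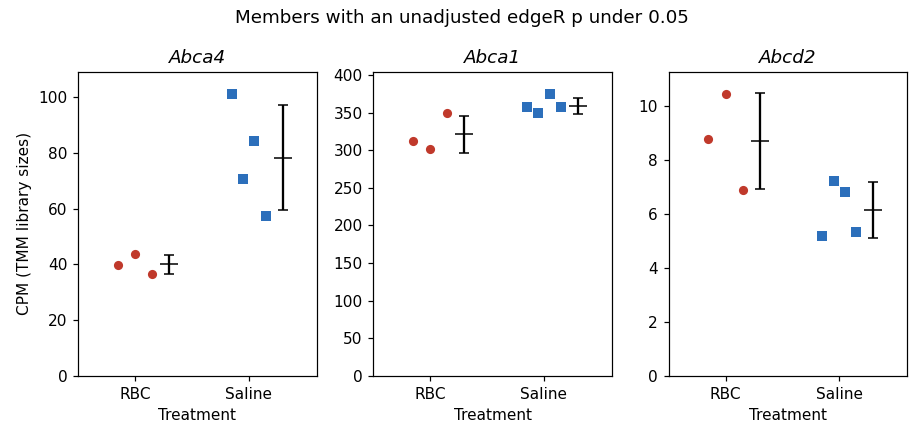
CPM by library of 3 ABC genes with an unadjusted edgeR p under 0.05, with RBC left of Saline; points are libraries, and the bars show the mean ± SD beside them. Abca4 does not overlap between groups, Abca1 touches at 349 CPM and Abcd2 overlaps, and 0 of the 3 passed over all genes in edgeR.

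Other lipid transporters of subfamily A differed little. Abca2, an endosomal lipid transporter known from oligodendrocytes, averaged 199 ± 11.2 CPM in RBC and 215 ± 12.5 CPM in Saline (SD, n = 3 and n = 4). Abca3, which fills the lamellar bodies of lung with surfactant lipid, averaged 90.8 ± 10.9 CPM in RBC and 85.8 ± 6.86 CPM in Saline. An antisense gene overlaps 10.5% of the exon bases of Abca3, the largest such overlap in the family. Of the remaining members, Abca13 had 10 to 32 counts per library and Abca12 had 2 counts in all.

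A cluster of 5 subfamily A genes lies within 109823032 to 110228542 of chromosome 11 on GRCm39, in the order Abca8b, Abca8a, Abca9, Abca6 and Abca5, and 4 of the 5 had a log2 fold change below 0. Abca5, a lysosomal lipid transporter, averaged 72.6 ± 12.7 CPM in RBC and 83.6 ± 6.52 CPM in Saline (SD, n = 3 and n = 4). Abca8a had 13.3, 9.08 and 22.8 CPM in RBC, against 20.5, 18.6, 23.0 and 19.5 CPM in Saline. RBC 1 and RBC 2 lay below all Saline libraries and RBC 3 lay among them. Its log2 fold change was -0.46 ± 0.26 (SE; edgeR adjusted p = 0.667), and -0.86 ± 0.18 without RBC 3 (edgeR adjusted p = 0.0316). Over 19 alternatives its adjusted p ran from 0.0316 to 0.9997. It passed in 2, without RBC 3 and without RBC 3 together with Saline 4. Those settings called 283 and 239 genes over all genes, against 9 in the main fit. Abca9 had 46.1, 62.5 and 86.2 CPM in RBC, against 60.1, 44.8, 63.8 and 40.8 CPM in Saline. At the top was RBC 3, the library with the most fibroblast and mural and also the most endothelial RNA. Abca8b had 2.89, 2.42 and 6.52 CPM in RBC, against 2.51, 2.41, 3.47 and 11.1 CPM in Saline, with Saline 4 at the top. Its log2 fold change was -0.26 ± 0.63 (SE), and 0.46 without Saline 4. Abca6 had 9 to 24 counts in RBC and 15 to 41 counts in Saline. Abca8a, Abca8b, Abca9 and Abca6 were singled out after their values were seen.

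The pumps known for drug and anion efflux made up 10.2% of the summed level. Of 8, 6 were higher in RBC, where 49.9% of all genes were, with a median log2 fold change of 0.09. There were 0 past edgeR or DESeq2 and 0 with an unadjusted p under 0.05. Among the higher pumps, Abcc1, Abcc4, Abcc5, Abcb1a and Abcg2 changed sign in some alternatives, and Abcc3 did not. Among the lower ones, Abcb1b changed sign and Abcc10 did not. Abcc1 (MRP1), an exporter of glutathione conjugates on the blood side of the choroid epithelium, led the group. It had 84.9, 99.7 and 81.5 CPM in RBC, against 87.8, 86.3, 87.2 and 87.6 CPM in Saline. The Saline libraries were nearly equal and lay inside the RBC range. Abcc4 (MRP4), which exports cyclic nucleotides and organic anions, had 49.7, 57.2 and 42.9 CPM in RBC, against 45.7, 48.8, 48.4 and 41.2 CPM in Saline, also overlapping. Abcc5 (MRP5) averaged 67.8 ± 6.86 CPM in RBC and 64.7 ± 2.97 CPM in Saline, and Abcc10 averaged 21.7 ± 3.61 CPM in RBC and 24.3 ± 3.85 CPM in Saline (SD, n = 3 and n = 4).

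Abcc3 (MRP3), an exporter of glucuronides, had 10.9, 18.0 and 13.4 CPM in RBC, against 7.98, 10.6, 7.30 and 14.6 CPM in Saline. Every RBC library lay above 3 of the 4 Saline libraries, and Saline 4 lay above RBC 1 and RBC 3. Its log2 fold change came to 0.50 ± 0.25 (SE; unadjusted p = 0.0716, edgeR adjusted p = 0.584).

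P-glycoprotein, the broad drug pump of brain capillaries, is encoded in mouse by Abcb1a and Abcb1b, which lie beside Abcb4 on chromosome 5. Abcb1a spans 8617091 to 8798575 and Abcb1b spans 8848147 to 8916314, both on the plus strand of GRCm39. Their longest coding transcripts were 88.8% identical over 3985 aligned bases, and 768 of the 4257 windows of 50 bases in Abcb1b (18.0%) were found unchanged in Abcb1a. The counting could therefore split or drop some of their reads. Abcb1a had 6.40, 4.99 and 21.7 CPM in RBC, against 9.46, 8.82, 6.10 and 14.4 CPM in Saline. RBC 3, with the most endothelial and also the most fibroblast and mural RNA, was the highest, and the other RBC libraries lay at the low end. The part of these cells in the Abcb1a values was not tested. The log2 fold change of Abcb1a was 0.19 ± 0.57 (SE), and -0.72 ± 0.31 without RBC 3, so its direction rests on that library.

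Abcb1b had 0.126, 0.605 and 3.98 CPM in RBC (1, 4 and 22 counts), against 2.07, 0.321, 0.478 and 101 CPM in Saline (14, 2, 4 and 438 counts). Saline 4 alone held nearly all of its reads. In that library Abcb1b lay above Abcb1a, and in the other 6 it lay below. Its log2 fold change, -4.11 ± 2.66 (SE; edgeR adjusted p = 0.738), rests on Saline 4, and without Saline 4, as without Saline 1, Abcb1b did not pass the count filter. Abcg2 (Bcrp), the other main pump of brain capillaries, had 17.7, 15.4 and 33.2 TPM in RBC, against 18.4, 20.2, 20.9 and 19.6 TPM in Saline. RBC 3 was again the highest and RBC 1 and RBC 2 were the lowest, and the log2 fold change of 0.16 ± 0.23 (SE) was -0.23 ± 0.12 without RBC 3.

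Of the transporters of the bile canaliculus, Abcb11 and Abcc2 were at or under 1 count per library outside Saline 4. Abcb11, the bile salt export pump, had 22 counts in Saline 4 and 0 counts in the other 6 libraries, where 3 counts correspond to 0.358 to 0.547 CPM. Abcc2 (MRP2) had 26 counts in Saline 4, 1 count each in RBC 3 and Saline 3, and 0 elsewhere. Abcc6, a transporter of liver and kidney whose loss in humans causes pseudoxanthoma elasticum, had 1, 4 and 14 counts in RBC, against 5, 5, 4 and 21 counts in Saline. Abcb4, the phosphatidylcholine flippase of bile, was read in all libraries, at 2.26, 2.12 and 2.35 CPM in RBC, against 3.10, 2.41, 3.23 and 2.55 CPM in Saline. Its groups did not overlap, on 11 to 27 counts per library, and the log2 fold change was -0.34 ± 0.28 (SE; edgeR adjusted p = 0.789). Beside these values, Saline 4 held 804 CPM of Afp and 478 CPM of Alb, hepatocyte list genes that reached at most 14.2 CPM and 1.28 CPM in the other libraries.

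**Figure D4:**
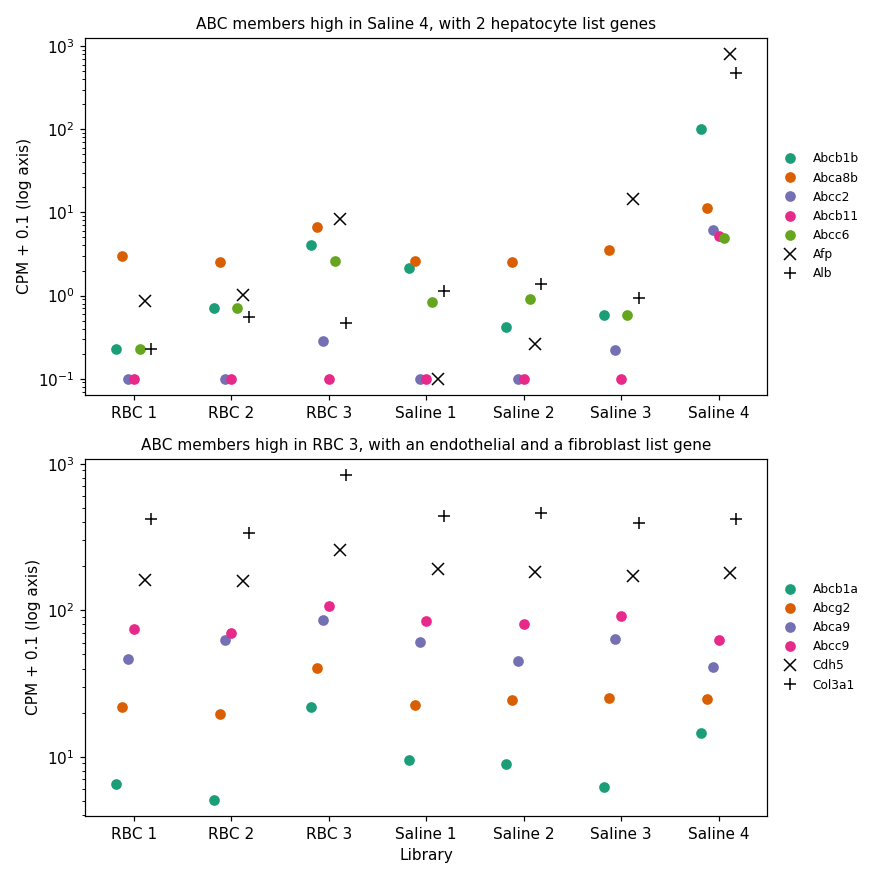
CPM + 0.1 (log axis) by library, RBC left of Saline, points set side by side within a library. The upper panel shows 5 ABC genes high in Saline 4, with Abcb1b at 101 CPM, beside the hepatocyte genes Afp and Alb. The lower panel shows 4 ABC genes high in RBC 3, with Abcb1a at 21.7 CPM, beside endothelial Cdh5 and fibroblast Col3a1. Cdh5 and Col3a1 are drawn as examples, and the other genes of their lists are not drawn. Of the 10 endothelial genes, 4 were higher in RBC and 6 lower, and of the 10 fibroblast and mural genes, 7 and 3.

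Among mitochondrial members, Abcb6, linked to porphyrin transport, averaged 50.3 ± 4.50 CPM in RBC and 47.5 ± 6.30 CPM in Saline (SD, n = 3 and n = 4). Abcb10, an inner membrane protein needed for hemoglobin production in red cell precursors, averaged 19.4 ± 1.17 CPM in RBC and 18.6 ± 2.86 CPM in Saline. Abcb8 had a log2 fold change of -0.09 ± 0.09 (SE).

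Among the peroxisomal importers of fatty acids, Abcd3, the most abundant, had 138, 113 and 108 CPM in RBC, against 125, 119, 130.1 and 127 CPM in Saline. RBC 1 was the highest of all libraries and the other RBC libraries were the lowest. Abcd2, which takes in very long-chain fatty acids, had 8.79, 10.4 and 6.88 CPM in RBC, against 5.17, 7.22, 6.82 and 5.33 CPM in Saline. RBC 1 and RBC 2 lay above all Saline libraries, and RBC 3 lay among them. The log2 fold change of Abcd2 was 0.50 ± 0.21 (SE), with an unadjusted p of 0.0375 and an edgeR adjusted p of 0.466, on 23 to 70 counts per library.

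The sulfonylurea receptors Abcc8 and Abcc9 are regulatory subunits of ATP-sensitive potassium channels, and Abcc9 is also a marker of pericytes. Abcc9 had 28.2, 25.4 and 40.7 TPM in RBC, against 32.0, 30.7, 35.0 and 22.6 TPM in Saline. RBC 3 was the highest, and its log2 fold change of 0.07 ± 0.17 (SE) was -0.14 without that library. Abcc8 had 6 to 17 counts per library. The pore genes Kcnj8 and Kcnj11 had log2 fold changes of 0.16 ± 0.23 and 0.31 ± 0.29 (SE), neither past the test. The lysosomal members Abcb9, a peptide transporter, and Abcd4, a cobalamin transporter, had log2 fold changes of -0.12 ± 0.19 and -0.07 ± 0.15. Abcg3 had 10 to 27 counts per library, Abcc12 0 to 4, and Abcb5, Abca15 and Abca17 at most 1.

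**Figure D5:**
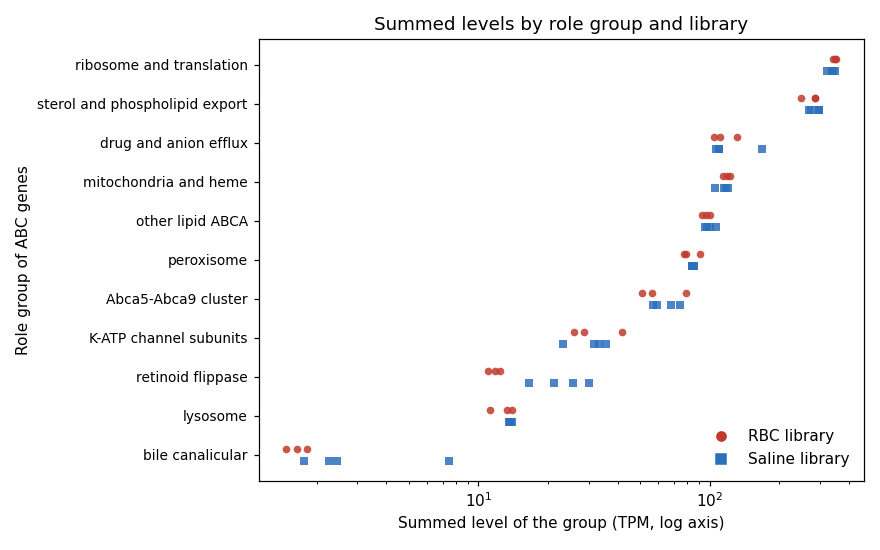
Summed level (TPM, log axis) of ABC genes by role, RBC points above Saline points within each role; each point is a library. Of the roles drawn, only the retinoid flippase Abca4 has groups that do not overlap, and Saline 4 stands to the right in the drug efflux and bile canalicular groups.

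Genes that work with these transporters were also counted, and 0 passed the edgeR test in any of 6 lists. Among 17 tested regulators of ABC genes, 10 were higher in RBC and 7 lower. Nfe2l2, encoding the antioxidant factor Nrf2, had a log2 fold change of 0.25 ± 0.09, Ahr, the dioxin receptor, -0.24 ± 0.10, and Mtf1, a metal-responsive factor, -0.32 ± 0.07 (SE; unadjusted p = 0.014, 0.0314 and 0.00121). Mtf1 passed in DESeq2 (adjusted p = 0.0405). The liver X receptor genes Nr1h2 and Nr1h3, which drive Abca1 and Abcg1, had log2 fold changes of 0.02 ± 0.08 and -0.21 ± 0.24.

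Of 20 tested partners of sterol efflux, 9 were higher in RBC and 11 lower. Lrp1, a lipoprotein receptor, stood at -0.24 ± 0.07 on the log2 scale (SE; edgeR adjusted p = 0.185) and passed in DESeq2 (adjusted p = 0.0199). Scarb1, the HDL receptor, had -0.21 ± 0.09 (SE; edgeR adjusted p = 0.471). Of 19 tested peroxisomal partners, 10 were higher and 9 lower, and Acsl1, an acyl-CoA synthetase, stood at -0.29 ± 0.10 on the log2 scale (SE; edgeR adjusted p = 0.302).

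Of 18 tested heme and iron partners, 8 were higher in RBC and 10 lower. Hmox1, heme oxygenase 1, had 333, 194 and 155 CPM in RBC, against 25.9, 30.0, 24.0 and 62.3 CPM in Saline. All RBC libraries lay above all Saline libraries, and the log2 fold change was 2.72 ± 0.45 (SE; edgeR adjusted p = 0.138, DESeq2 adjusted p = 1.56e-05). The heme transporters Slc48a1 and Flvcr1 had log2 fold changes of 0.41 ± 0.10 and 0.64 ± 0.19 (SE; edgeR adjusted p = 0.137 and 0.226), and Slc48a1 passed in DESeq2 (adjusted p = 0.0242).

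A list of enzymes of glutathione synthesis and of conjugation, whose products are cargo of the MRP pumps, held 19 tested genes. Of these, 12 were higher in RBC and 7 lower. The list also takes in Ugt1a7c, which makes glucuronides, and Nqo1, a quinone reductase. Gclc, which catalyses the rate-limiting step of glutathione synthesis, had 58.1, 62.6 and 39.3 CPM in RBC, against 31.3, 35.6, 34.7 and 30.8 CPM in Saline. All RBC libraries lay above all Saline libraries, and the gene's log2 fold change came to 0.69 ± 0.14 (SE; edgeR adjusted p = 0.126, DESeq2 adjusted p = 0.00646). Its partner subunit Gclm had 0.60 ± 0.15 (SE; edgeR adjusted p = 0.188, DESeq2 adjusted p = 0.0204). Gstp1, Mgst1, Gsta4 and Ugt1a7c also had an unadjusted p under 0.05 and were higher, and Nqo1, at -0.24 ± 0.10, was lower. Beside them, the pumps themselves, Abcc1, Abcc4 and Abcc5, had log2 fold changes of 0.02 ± 0.08, 0.12 ± 0.11 and 0.07 ± 0.08 (SE).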

How the data were processed

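Poly(A) RNA of pooled choroid plexus was sequenced from 3 RBC and 4 Saline libraries with directional preparation, per the labels' protocols. The authors deposited raw read counts for each gene beside its exon positions and summed exon length, as the file headers show. Read trimming tools and aligners named in the submitters' processing notes are cutadapt 2.5 and STAR 2.6.1b, with featureCounts 2.0.6 as counter and GRCm39 as the build. Neither the gene annotation version nor the settings for strand and multi-mapped reads are given in the sources used here. Counts of overlapping, antisense and near-identical genes are therefore uncertain. Exons of 13 ABC genes overlap another gene, 0 of them on the same strand.

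The lines of 6 genes outside the family were broken in the table and left out, and the 6 continuation lines held 0.107% of counts. A count of 3 corresponds to 0.358 to 0.683 CPM by library. Each pair of libraries differed beyond sampling noise, by 3.60 to 14.2 in chi-square per degree of freedom. The main test on these counts was edgeR's quasi-likelihood F test, version 4.0.16 (TMM, filterByExpr, robust, two-sided) under R 4.3.3, over 14869 genes with Benjamini-Hochberg adjustment. The common biological coefficient of variation was 13.7%. Standard errors come from the F statistic. TPM was computed here from counts and exon lengths. The edgeR fitting step alone was checked on simulated counts with known changes.

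The members, the gene lists and the tests were chosen with earlier results of these data known. Named members are those with an unadjusted p under 0.05, the 12 most abundant, and those with barrier, heme, iron or sterol roles. Other members are named to account for the family, and values of some genes are not reported here. List genes are named by an unadjusted p under 0.05 or, with none, as the 2 most abundant. Aqp1 and Slc4a5 are named for their DESeq2 calls. Nr1h2, Nr1h3, Afp, Alb, Ahsg and Adgre1 are named beside results they bear on. Cdh5 and Col3a1 are drawn as examples of their lists. Alternatives were DESeq2 1.42.0, limma 3.58.1 (voom), other normalizations and filters, a replicate block, and each library left out. Leaving out RBC 3 together with Saline 4 was added after seeing the data. Promoter windows came from RefSeq tables of GRCm38.p6, and transcripts compared between members from GENCODE of GRCm38. No coordinates were converted between builds.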

Additional observations from a re-analysis of the deposited data

Results flagged for a closer look

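In a group of 4 libraries, a value was singled out when its gap to the next library took nearly the whole range of the group (Dixon's criterion). Of 44 ABC genes checked in Saline, 5 met it (11.4%), each with Saline 4 at the top. The criterion flags about 1 in 20 for normally distributed values, which levels near 0 are not. The share over all genes is not given here, so the count is no result about the ABC genes. Abcb1b stood at 101 CPM there, and the other Saline libraries lay between 0.321 and 2.07 CPM. Abca8b stood at 11.1 CPM, against 2.41 to 3.47 CPM. Abcc2 stood at 6.02 CPM, against 0 to 0.120 CPM. Abcb11 stood at 5.10 CPM, against 0 in the other 3. Abcc6 stood at 4.86 CPM, against 0.478 to 0.802 CPM. The hepatocyte list summed to 1767 CPM in the same library, and its part in these values was not tested.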

How the results depend on the processing

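The count of genes called by edgeR over all genes, 9 here, was 280 with DESeq2, 48 with weighted limma-voom, 136 with no count filter, 16 without robust estimation, 40 without RBC 2 and Saline 4, 239 without RBC 3 and Saline 4, and 1 to 283 with single libraries left out (RBC 1: 17, RBC 2: 34, RBC 3: 283, Saline 1, 2 or 3: 1, Saline 4: 5). The count of ABC genes called, 0 here, was 1 with DESeq2 (Abca4), 1 without RBC 2 and Saline 4 (Abca4), 2 without RBC 3 and Saline 4 (Abca4 and Abca8a) and 0 to 1 with single libraries left out (Abca8a without RBC 3, Abca4 without Saline 4). The median log2 fold change of tested ABC genes, -0.05 here, was -0.0060 at a mean count of at least 50, 0.0040 without RBC 2 and Saline 4, -0.015 without RBC 3 and Saline 4, and -0.050 to 0.030 with single libraries left out. The share of the 5 most abundant genes stayed between 42.8 and 43.3%. The labels give both groups replicates 1 to 3. Deviations from the group means correlated at -0.0080, -0.17 and -0.17 between same-numbered libraries, which gave no sign of pairing. With so few libraries, some of which stood apart, these correlations cannot decide whether same-numbered libraries were paired. With the replicate number as a block, 2 genes were called over all genes, 0 of them among the 9 and 0 of them ABC genes, and the median of the ABC genes was 0.020. The cause of these shifts was not tested.

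Abca4, Abca1 and Abcd2 kept their direction in all alternatives that gave a value. Of 35 ABC genes compared over the alternatives, 20 kept it throughout. The others changed sign, mostly near 0: to -0.066 (Abcb1a) with limma-voom, to -0.33 (Abcb1a), -0.015 (Abcc9), -0.039 (Abcg2) and 0.048 (Abcg8) with sample weights, and to 0.0015 (Abcf1) without a count filter. With the replicate block the values were 0.42 (Abca8b), 0.52 (Abcb1b), -0.044 (Abcc9), 0.020 (Abcf1) and 0.0067 (Abcg8). With 1 library or either pair left out, the ranges of genes that changed sign were -0.012 to 0.21 (Abca3), -0.78 to 0.70 (Abca8b), -0.055 to 0.49 (Abca9), -0.029 to 0.14 (Abcb10), -0.72 to 0.77 (Abcb1a), -6.05 to 0.97 (Abcb1b), -0.067 to 0.086 (Abcc1), -0.032 to 0.21 (Abcc4), -0.0088 to 0.14 (Abcc5), -0.23 to 0.18 (Abcc9), -0.18 to 0.016 (Abcd3), -0.040 to 0.049 (Abcf1), -0.066 to 0.022 (Abcf3), -0.23 to 0.35 (Abcg2) and -0.36 to 0.20 (Abcg8). Abcb1b failed the filter, and so has no value, without Saline 1, without Saline 4 and without RBC 3 and Saline 4. Its highest value, 0.97, is that without RBC 2 and Saline 4, and with 1 library left out it ran from -6.05 to -3.46. Depth limits the genes under 50 counts per library, among them Abcb4, Abcg3 and Abcc8, whose standard errors were 0.28, 0.38 and 0.41.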
